A study of Mus musculus with 20 samples.

Results

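Arxes1, Lingo3, Lypd8, Unc13b and Tmem98, 5 of the 50559 genes counted, were followed gene by gene through mouse liver tumors and control livers. They were picked from their measured levels in these same 20 libraries, as genes that tumors express and liver usually does not. Their levels and the differences between groups are therefore given as a description, with no test. Arxes1, Lingo3 and Lypd8 had 0 reads in each of the 5 livers and were read in each of the 15 tumors. As the genes were picked for that pattern, this lends it no support. The pattern did not hold for Unc13b and Tmem98, which were read in every liver. By mean level they were lower than liver in 2 and 3 of the 3 tumor groups.

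RNA from wild type female C57BL/6J mice was sequenced in bulk as 20 libraries, 5 for each of 4 groups. Tumors arose after hydrodynamic gene transfer, a rapid tail vein injection of plasmids that transfects hepatocytes, with the Sleeping Beauty transposase SB100X to integrate them. Aldafermin + MYC tumors received plasmids for MYC and for Aldafermin (NGM282), an engineered analog of the human hormone FGF19, FGF19 + MYC tumors received MYC and FGF19 itself, and sgTrp53 + MYC tumors received MYC and a Cas9 vector with a guide against Trp53, without either hormone. MYC was driven by the EF1a promoter in all 3 tumor groups and no group had MYC alone, so that no difference from liver can be assigned to one of the plasmids. The labels call the control livers non treated, whereas the methods describe an RFP plasmid. Each tumor library came from an individual tumor and its own mouse. In such bulk RNA, fewer cells of a type and less RNA per cell cannot be told apart.

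Reads counted on genes ranged from 18004977 to 44427184 per library in both hormone groups and livers and from 54042455 to 66354724 in sgTrp53 + MYC tumors. These 5 libraries stood in a table of their own, in which 12.9% of reads fell on more than one gene against 4.48% to 4.81% on average in the other groups, so that table and group cannot be told apart. Trp53 itself stood at 138 CPM ± 32.5 (SD, n = 5) in Aldafermin + MYC, 139.5 ± 17.9 in FGF19 + MYC, 46.8 ± 22.6 in sgTrp53 + MYC tumors and 32.8 ± 2.98 in livers. CPM is a gene's share of the reads of its library, in parts per 1e6, on the scale of TMM normalization, which sets libraries equal over most genes. The 10 hepatocyte markers summed to between 188778 and 233577 CPM in livers and to between 4281 and 29779.5 CPM in tumors, with the highest tumor values in Aldafermin + MYC replicate 4 (23346) and FGF19 + MYC replicate 5 (29779.5).

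MYC is a transcription factor that, paired with MAX, binds the palindrome CACGTG, the canonical E-box, and raises the output of a large share of active genes. FGF19 is an intestinal hormone that represses bile acid synthesis in hepatocytes through the receptor FGFR4. The 5 genes have unrelated roles. Arxes1 (adipocyte-related X-chromosome expressed sequence) is a single exon gene related to Spcs3, a subunit of the signal peptidase that trims proteins entering the endoplasmic reticulum. Lingo3 encodes a membrane protein with leucine-rich repeats, of the family of Lingo1, which restrains myelination and axon growth. Lypd8 encodes a LY6 and uPAR domain protein that the colon epithelium secretes and that holds flagellated bacteria away from the mucosa. Unc13b encodes Munc13-2, which opens syntaxin and so primes secretory vesicles for fusion. Tmem98 encodes a membrane protein that binds the membrane-bound transcription factor MYRF and blocks its self-cleavage.

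The genes lie on 4 chromosomes of GRCm39. Arxes1 spans chrX:134934116-134935695 on the plus strand in 1 exon, Lingo3 chr10:80668624-80680465 on the minus strand, Lypd8 chr11:58269863-58281554, Unc13b chr4:43058940-43264885 and Tmem98 chr11:80700551-80713109, all 3 on the plus strand. The stretch from 250 bases before to 30 bases after the start of each canonical transcript is shown, which for Lingo3 and Tmem98 lies inside the span above, since the 5 genes differ in whether the E-box is present there. Capitals mark CACGTG.
Lingo3, chr10:80679926-80680205, minus strand: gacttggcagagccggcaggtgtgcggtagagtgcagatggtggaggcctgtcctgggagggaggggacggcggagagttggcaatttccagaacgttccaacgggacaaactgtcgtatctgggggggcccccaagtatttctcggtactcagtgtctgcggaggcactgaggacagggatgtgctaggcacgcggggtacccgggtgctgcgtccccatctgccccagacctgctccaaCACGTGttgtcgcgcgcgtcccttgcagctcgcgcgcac
Unc13b, chr4:43058690-43058969, plus strand: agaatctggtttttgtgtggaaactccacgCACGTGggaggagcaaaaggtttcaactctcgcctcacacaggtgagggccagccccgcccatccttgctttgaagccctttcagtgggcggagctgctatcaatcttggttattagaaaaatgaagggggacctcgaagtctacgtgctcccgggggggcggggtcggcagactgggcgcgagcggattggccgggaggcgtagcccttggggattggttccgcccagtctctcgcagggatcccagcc
Tmem98, chr11:80700751-80701030, plus strand: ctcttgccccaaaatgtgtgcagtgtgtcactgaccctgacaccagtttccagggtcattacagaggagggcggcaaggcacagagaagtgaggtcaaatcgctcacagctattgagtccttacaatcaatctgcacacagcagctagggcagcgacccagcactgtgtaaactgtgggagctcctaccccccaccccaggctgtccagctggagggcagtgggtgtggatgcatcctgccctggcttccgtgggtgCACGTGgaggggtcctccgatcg
Arxes1, chrX:134933866-134934145, plus strand: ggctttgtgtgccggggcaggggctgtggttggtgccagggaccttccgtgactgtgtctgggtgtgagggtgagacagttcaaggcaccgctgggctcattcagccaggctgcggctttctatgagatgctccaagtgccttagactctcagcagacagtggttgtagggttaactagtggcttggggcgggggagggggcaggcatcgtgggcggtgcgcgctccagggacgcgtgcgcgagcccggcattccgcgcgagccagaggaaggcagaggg
Lypd8, chr11:58269613-58269892, plus strand: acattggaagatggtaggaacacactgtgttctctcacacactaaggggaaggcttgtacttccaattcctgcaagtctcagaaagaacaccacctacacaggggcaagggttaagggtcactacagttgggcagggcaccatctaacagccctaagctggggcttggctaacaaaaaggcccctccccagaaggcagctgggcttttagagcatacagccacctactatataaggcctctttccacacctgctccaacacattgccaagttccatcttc
CACGTG, which reads the same on both strands, was present in 3 of the 5 sequences, 9 bases before the start site of Lingo3, 220 bases before that of Unc13b and 8 bases after that of Tmem98. The same letters were found in 7.81% of 21770 protein-coding promoters when 250 bases before to 50 after the start were searched, and in 7.15% of the 32851 promoters of the RefSeq table (GRCm38.p6). The same 3 genes held it there, Lingo3 in 1 of its 2 entries. Of these 3 genes, Lingo3 was read only in tumors while Unc13b and Tmem98 were read in livers too, so the letters did not divide the genes by their level in liver. Over the 300 bases searched, GC content was 65.0% for Arxes1, 64.7% for Lingo3, 60.3% for Unc13b, 58.3% for Tmem98 and 51.7% for Lypd8, against a median of 54.3% over all promoters. The Lypd8 promoter also held few CpG, at 0.0507 of the number expected from its bases, against a median of 0.517.

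**Figure D1:**
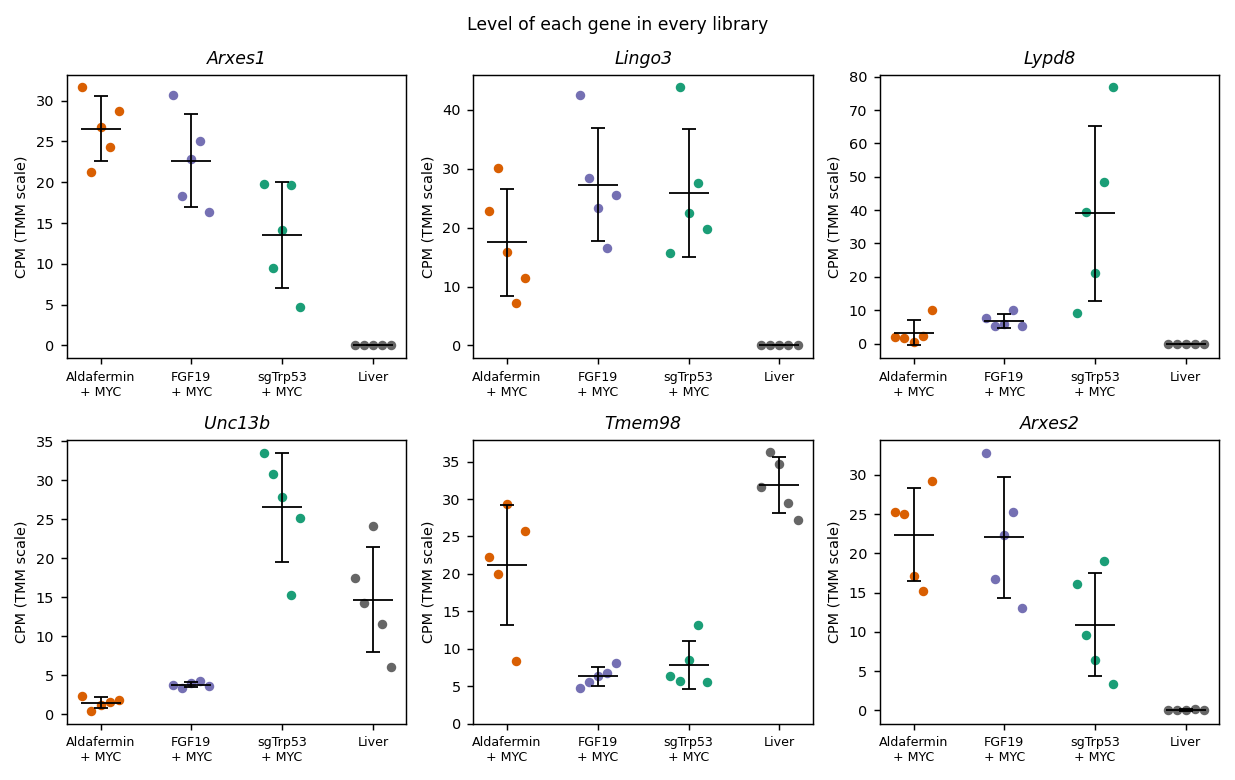
Level of each gene in every library, in CPM on the TMM scale, by group (5 points per group, one per library; the long bar is the mean and the whiskers the SD). Arxes1, Lingo3 and Lypd8 lie at 0 in the 5 livers, Unc13b is highest in sgTrp53 + MYC tumors, Tmem98 is highest in livers, and Arxes2 follows the pattern of Arxes1.

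Arxes1 was read at similar levels in every Aldafermin + MYC tumor, with 31.6, 21.3, 26.8, 24.3 and 28.7 CPM in replicates 1 to 5. The FGF19 + MYC tumors held 30.7, 18.3, 22.8, 25.1 and 16.4 CPM, and the sgTrp53 + MYC tumors 19.8, 9.45, 14.1, 19.7 and 4.77 CPM. Both hormone groups overlapped, the sgTrp53 + MYC tumors reached lower, and all 15 tumors lay above the livers, where 0 reads were counted. A count of 0 allows up to 3 reads, which is between 0.110 and 0.215 CPM in these livers. Against 0.215 CPM, the mean level of Arxes1 was at least 123-fold higher in Aldafermin + MYC (26.5 CPM ± 3.97, SD, n = 5), at least 105-fold higher in FGF19 + MYC (22.7 ± 5.68) and at least 63.0-fold higher in sgTrp53 + MYC tumors (13.6 ± 6.53). These bounds cover counting error only. The fitted log2 fold change between the hormone groups was 0.23 (SE 0.31), and that of their mean against sgTrp53 + MYC tumors was 0.85 (SE 0.28), with overlapping ranges.

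Arxes2, the neighbouring copy of Arxes1, was read in the same tumors. It stood at 22.3 CPM ± 5.92 (SD, n = 5) in Aldafermin + MYC, 22.02 ± 7.67 in FGF19 + MYC and 10.9 ± 6.54 in sgTrp53 + MYC tumors, and at 3 reads in all livers together, all of them in replicate 4. With the reads of each group pooled and set against its pooled library size, the ratio of tumor to liver was 788 for Aldafermin + MYC tumors (95% exact counting interval 269.6 to 3824), 736 for FGF19 + MYC tumors (252 to 3572) and 371 for sgTrp53 + MYC tumors (127 to 1798). The coding sequences of both copies were 100% identical over 540 bases, and 79.3% of aligned bases matched those of Spcs3. Read pairs that lie wholly within this shared stretch cannot be placed on one copy. In all, 34.2% of 150-base windows of the Arxes1 transcript occurred unchanged in Arxes2, and the promoters of both copies were 97.4% identical. Reads that were counted on one copy divided at a ratio of Arxes1 to Arxes2 of 1.23 ± 0.351 (SD, n = 15 tumors), from 0.854 to 2.201. Reads that aligned to more than 1 place were tallied apart from the genes, at 5.40% to 9.78% of reads per library. How many of them came from these copies was not tested. The level of each copy is therefore uncertain, whereas livers held 0 reads of one and 3 of the other.

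**Figure D2:**
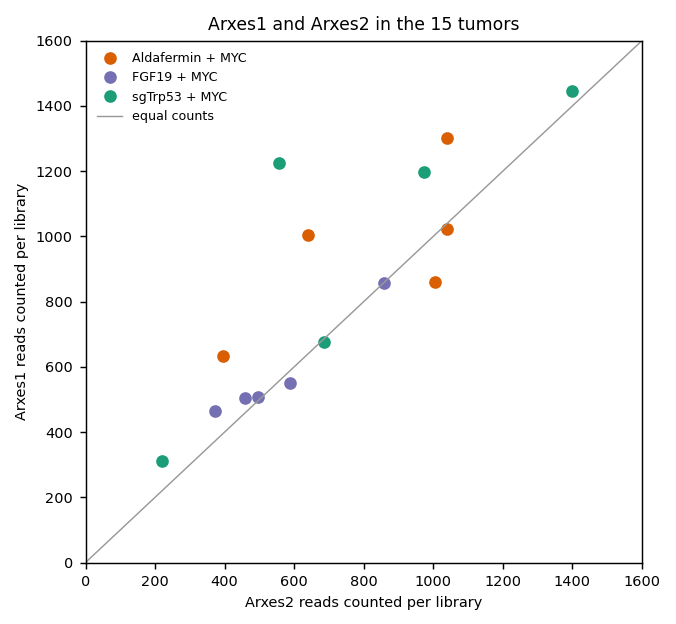
Reads counted on Arxes1 (vertical axis) and on Arxes2 (horizontal axis) in each of the 15 tumors, with a line where both counts are equal. The points follow the line, with ratios from 0.854 to 2.201, the highest in a sgTrp53 + MYC tumor.

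Several genes around Arxes1 were low in livers too. Of the 3 nearest protein-coding genes on each side, 4 passed the filter for testing (at least 1 CPM in at least 5 libraries). Arxes2, Bex2 and Bex4 passed it through their levels in tumors and so had to differ from liver, and their levels are given with no test. Of all 14333 genes tested, 70.3% were called against liver in Aldafermin + MYC, 69.7% in FGF19 + MYC and 69.9% in sgTrp53 + MYC tumors. Bex2 (brain expressed X-linked 2) stood at 0.364 CPM ± 0.603 (SD, n = 5) in livers and at 269 ± 46.8 in Aldafermin + MYC, 218 ± 32.2 in FGF19 + MYC and 103 ± 45.9 in sgTrp53 + MYC tumors. Bex4, of the same family of small proteins, stood at 0.5002 CPM ± 0.288 in livers and at 234 ± 72.7, 188 ± 42.6 and 183 ± 56.7 in the same order of tumors. Bhlhb9, which averaged 3.34 CPM in livers, was higher in tumors by a log2 fold change of 3.08 (SE 0.29), 2.38 (SE 0.29) and 2.91 (SE 0.29), with edgeR adjusted p from 1.93e-08 to 5.04e-07.

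Between tumor groups, Bex2 was the one of these 4 neighbours that differed past the threshold, higher in the hormone tumors than in sgTrp53 + MYC tumors (log2 fold change 1.23, SE 0.40, edgeR quasi-likelihood adjusted p = 0.0299), where 23.7% of all genes were called. This call was lost without sgTrp53 + MYC replicate 1, 2, 3 or 5, with an adjusted p of at most 0.0781 by the same edgeR test. For Arxes2 the log2 fold change was 1.03 (SE 0.38, edgeR adjusted p = 0.0580), for Bex4 0.20 (SE 0.24) and for Bhlhb9 -0.18 (SE 0.23). Nxf3, an mRNA export factor homolog that lies between Bex2 and Bex4, did not exceed 0.364 CPM in any library and was not tested, as was Gprasp2, which did not exceed 0.398 CPM.

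A wider window, chosen after these values were seen and given with no test, held 19 protein-coding genes whose starts lay within 500 kb of that of Arxes1. A mean under 1 CPM in livers together with a mean of at least 10 CPM in each tumor group was met by 4 of the 19, Arxes2, Bex2, Bex4 and Bex1, and by 0.862% of 19381 protein-coding genes. The same windows around Lingo3, Lypd8 and Tmem98 held 0 such genes of 53, 17 and 6, and that around Unc13b held 1 of 22, Arhgef39. Bex1, 183 kb from Arxes1, averaged 418 CPM in Aldafermin + MYC, 394 in FGF19 + MYC and 248 in sgTrp53 + MYC tumors against 0.410 in livers. Bex3, 221 kb away, averaged 230, 191 and 147 CPM in the same order against 1.86 in livers. Tceal5, of the neighbouring Tceal family of transcription elongation factor-like proteins, averaged 13.2, 12.7 and 5.83 CPM against 0.0363. The pattern was not shared by every gene there: Gprasp1, 291 kb on the other side, averaged between 6.51 and 7.55 CPM in all 4 groups.

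**Figure D3:**
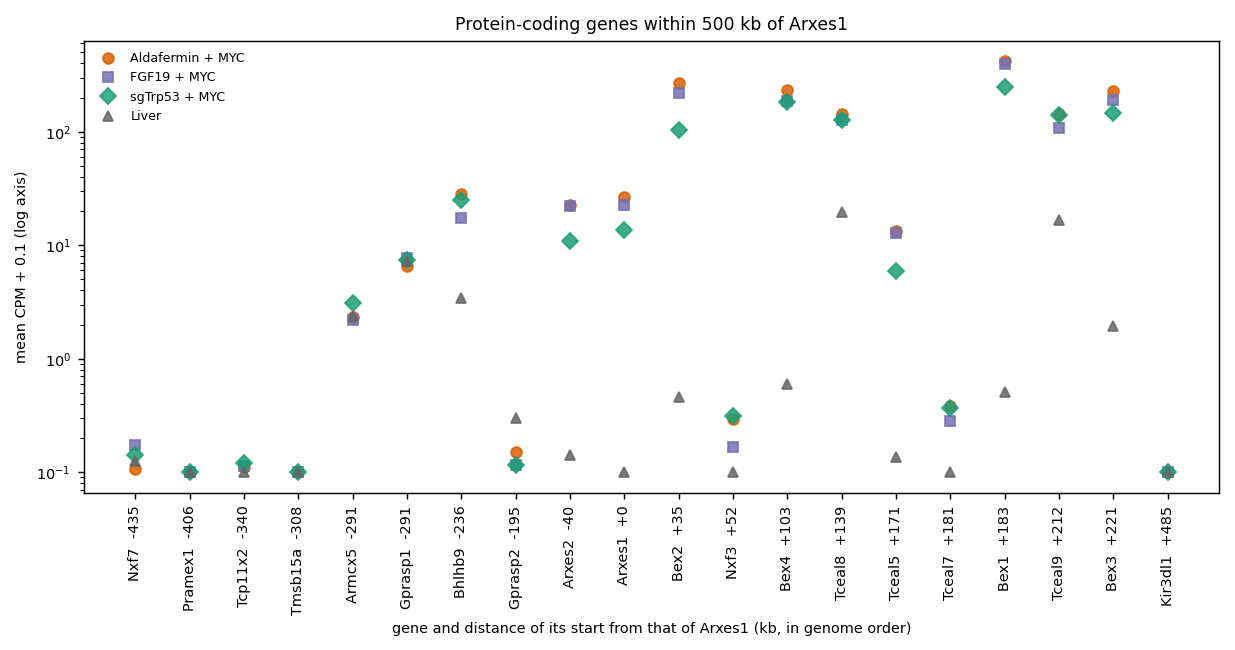
Mean CPM plus 0.1 (log axis) of Arxes1 and of the 19 protein-coding genes within 500 kb, in genome order with the distance of each start from that of Arxes1 in kb, by group. Arxes1, Arxes2, Bex2, Bex4 and Bex1 lie at or below 0.5002 CPM in livers and at 10.9 CPM or more in every tumor group, whereas Gprasp1 lies between 6.51 and 7.55 CPM throughout.

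The partners of the Spcs3 family changed far less than Arxes2. All 6 genes of the ARXES and signal peptidase list were tested. Higher than liver were 4 in Aldafermin + MYC, 4 in FGF19 + MYC and 2 in sgTrp53 + MYC tumors, and 0 were lower. Arxes2 was counted each time, although it passed the filter through its levels in tumors and so had to differ from liver. Over all genes tested, 38.4%, 36.9% and 36.9% were higher. Spcs3 rose by a log2 fold change of 0.71 (SE 0.24, edgeR adjusted p = 0.0125) and 0.57 (SE 0.24, edgeR adjusted p = 0.0386, lost when any of 7 libraries was left out) in the hormone tumors and stood at 0.02 (SE 0.24) in sgTrp53 + MYC tumors. Spcs2, another subunit, and Sec11a, a catalytic subunit, rose by 0.70 (SE 0.23) and 0.79 (SE 0.22) in Aldafermin + MYC and by 0.67 (SE 0.23) and 0.76 (SE 0.22) in FGF19 + MYC tumors. Spcs2 and Spcs3 were also higher in the hormone tumors than in sgTrp53 + MYC tumors, by 0.60 (SE 0.20, edgeR adjusted p = 0.0352) and 0.62 (SE 0.21, edgeR adjusted p = 0.0382). The Spcs2 call was lost when any of 5 libraries was left out and the Spcs3 call when any of 7 was, sgTrp53 + MYC replicates 3 and 5 among them, with edgeR adjusted p of at most 0.104 and 0.109. Of 11 adipocyte markers, Lep, Plin1, Retn and Cfd had at most 3 reads in every library, Adipoq reached at most 0.159 CPM, and 5 were tested. Fabp4, which vessel cells and macrophages also express, was higher than liver in all 3 tumor groups, Pparg and Lipe were lower in all 3, Plin4 was lower in both hormone groups and Cidec in FGF19 + MYC tumors. The 11 markers summed to 38.1 to 99.4 CPM in tumors and 63.8 to 75.6 in livers, and their part in the level of Arxes1 was not tested.

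Lingo3 was read in all 15 tumors with a wide spread within each group. The Aldafermin + MYC tumors held 22.8, 30.04, 15.8, 7.27 and 11.4 CPM in replicates 1 to 5, the FGF19 + MYC tumors 42.5, 28.3, 23.3, 16.6 and 25.5, and the sgTrp53 + MYC tumors 15.7, 43.8, 22.4, 27.6 and 19.8. All 3 groups overlapped, and the lowest value came from Aldafermin + MYC replicate 4, one of the tumors with the highest hepatocyte markers. FGF19 + MYC replicate 5, the tumor with the most hepatocyte markers, held 25.5 CPM, the median of its group. The part of those markers in the level of Lingo3 was not tested. Against the 3 reads that a liver count of 0 allows, the level was at least 81.2-fold higher in Aldafermin + MYC (17.5 CPM ± 9.09, SD, n = 5), at least 127-fold higher in FGF19 + MYC (27.3 ± 9.57) and at least 120-fold higher in sgTrp53 + MYC tumors (25.9 ± 10.9). The fitted log2 fold change was -0.64 (SE 0.37) between Aldafermin + MYC and FGF19 + MYC tumors, and -0.25 (SE 0.31) between the mean of both and sgTrp53 + MYC tumors. Without sgTrp53 + MYC replicate 2, the highest library, the latter value was 0.03.

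The relatives of Lingo3 did not accompany it. Lingo1 averaged between 0.133 and 0.921 CPM in the 4 groups, Lingo4 between 0.208 and 0.563, and Lingo2 had 0 reads in livers and hormone tumors and 10 in a single sgTrp53 + MYC library. None of these 3 genes reached the filter for testing. Of the 11 genes in the list of LINGO relatives and Nogo receptor partners, 5 were tested, and 2, 2 and 2 were called against liver in Aldafermin + MYC, FGF19 + MYC and sgTrp53 + MYC tumors. Over all genes tested, 70.3%, 69.7% and 69.9% were called in these comparisons. Rtn4, which encodes the axon growth inhibitor Nogo, was lower in all 3 tumor groups, with a log2 fold change of -1.69 (SE 0.20), -1.71 (SE 0.20) and -1.83 (SE 0.21), with edgeR adjusted p from 1.89e-07 to 5.40e-07. Ngfr, the low affinity neurotrophin receptor, was lower in Aldafermin + MYC (-2.58, SE 0.77) and sgTrp53 + MYC tumors (-2.90, SE 0.77), and Tnfrsf19, which can stand in for it, was higher in FGF19 + MYC tumors (0.87, SE 0.28). The 11 neuron markers summed to 3.22 to 4.18 CPM in livers, 4.99 to 24.2 in hormone tumors and 14.7 to 43.3 in sgTrp53 + MYC tumors. The 2 that were tested differed in direction. Map2 was higher than liver in all 3 tumor groups (3.06, 1.79 and 4.17). Syp was lower in sgTrp53 + MYC tumors (-0.87) and was not called in the hormone groups (-0.59 and -0.54). The part of these markers in the level of Lingo3 was not tested.

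Of the 6 neighbours of Lingo3, 3 were tested. Among them, Lsm7, a subunit of the mRNA decay and splicing ring, was higher than liver by a log2 fold change of 2.65 (SE 0.39), 2.74 (SE 0.39) and 2.52 (SE 0.38) in the 3 tumor groups in the order above. Sppl2b, an intramembrane protease, was higher by 1.21 (SE 0.17), 1.26 (SE 0.17) and 1.098 (SE 0.17). Oaz1, an inhibitor of polyamine synthesis, stood at -0.50 (SE 0.23), -0.67 (SE 0.23) and -0.80 (SE 0.24), and passed the threshold in the last 2 groups.

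Lypd8 was the most uneven of the 5 genes. The sgTrp53 + MYC tumors held 9.26, 39.5, 21.1, 48.4 and 76.8 CPM in replicates 1 to 5, the FGF19 + MYC tumors 7.59, 5.39, 5.75, 10.2 and 5.38, and the Aldafermin + MYC tumors 1.97, 1.76, 0.347, 2.35 and 10.1. Among the Aldafermin + MYC tumors, 4 lay below every FGF19 + MYC tumor, and replicate 5 lay within their range. All sgTrp53 + MYC tumors but replicate 1 lay above every hormone tumor. The mean level against the liver floor was at least 15.4-fold higher in Aldafermin + MYC (3.31 CPM ± 3.89, SD, n = 5), at least 31.9-fold in FGF19 + MYC (6.86 ± 2.07) and at least 181-fold in sgTrp53 + MYC tumors (38.999 ± 26.1). Without Aldafermin + MYC replicate 5 the first of these bounds became 7.82-fold, and without sgTrp53 + MYC replicate 5 the last became 137-fold.

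The fitted log2 fold change of Lypd8 was -1.05 (SE 0.66) for Aldafermin + MYC minus FGF19 + MYC and -3.03 (SE 0.54) for the mean of both minus sgTrp53 + MYC tumors. Without Aldafermin + MYC replicate 5 these became -2.12 and -3.59. The paralog Lypd8l had at most 17 reads in any group, and its coding sequence was 52.2% identical, with no stretch of 150 bases of the Lypd8 transcript shared. Of 39 genes with a LY6 and uPAR domain, 10 were tested, and 7, 5 and 8 were called against liver in Aldafermin + MYC, FGF19 + MYC and sgTrp53 + MYC tumors. The shares called over all genes tested were 70.3%, 69.7% and 69.9%. Higher in all 3 groups were Plaur, the urokinase receptor (log2 fold change 3.63, 3.81 and 4.55, SE 0.79 to 0.81), and Ly6c1, a marker of monocytes and vessels (5.16, 3.87 and 5.61, SE 0.76 to 0.79). Cd59a and Cd59b, which protect cells from complement, were lower in all 3 groups, Cd59b at -2.70 (SE 0.33), -3.52 (SE 0.35) and -3.28 (SE 0.34). Of this family, Gpihbp1, the capillary anchor of lipoprotein lipase, was the gene that differed between hormone and sgTrp53 + MYC tumors (1.01, SE 0.34, edgeR adjusted p = 0.0366). That call was lost when any of 8 libraries was left out, sgTrp53 + MYC replicates 2 to 5 among them, with an edgeR adjusted p of at most 0.103.

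Some markers of the colon epithelium, the usual site of Lypd8, were above liver in tumors and others were below. Of 14 markers, 7 were tested, and Krt20, Tff3 and Vil1 were higher than liver in all 3 tumor groups. None of these 3 reached 1 CPM in every liver. They passed the filter through tumors, so no test result is read from their calls. Aqp8 was lower than liver in all 3 tumor groups, Car1 and Lgals4 in both hormone groups and Fabp2 in sgTrp53 + MYC tumors. Over all genes tested, 31.9%, 32.9% and 33.0% were lower than liver in Aldafermin + MYC, FGF19 + MYC and sgTrp53 + MYC tumors, and 38.4%, 36.9% and 36.9% higher. Between hormone and sgTrp53 + MYC tumors 2 of the 7 were higher and 4 lower, where 11.6% of all genes tested were higher and 12.1% lower. Krt20, a keratin of differentiated colon cells, averaged 26.6 CPM in Aldafermin + MYC, where Lypd8 was lowest, 10.2 in FGF19 + MYC and 5.73 in sgTrp53 + MYC tumors, against 2 reads in all livers. Tff3, a goblet cell peptide, averaged 13.3, 20.3 and 119 CPM in the same order against 0.357 in livers, the order of Lypd8, and reached 376 CPM in sgTrp53 + MYC replicate 1, the tumor of its group with the least Lypd8. Vil1, an actin binding protein of the brush border, was higher than liver by a log2 fold change of 2.90 (SE 0.85), 1.94 (SE 0.83) and 3.89 (SE 0.88) in the same order. In sgTrp53 + MYC replicates 1 to 5 it held 0.527, 20.5, 19.5, 5.07 and 22.6 CPM, lowest in the tumor with the least Lypd8 and highest in the tumor with the most. Replicate 4, at 5.07 CPM, had the second most Lypd8 of that group. In Aldafermin + MYC the tumor with the most Lypd8, replicate 5, had the least Vil1 (2.19 CPM), and replicate 1 had the most (22.3 CPM). In FGF19 + MYC replicate 4 had the most of both. Cdh17, an intestinal cadherin, stood at 173 CPM in sgTrp53 + MYC replicate 2 and at most 0.187 CPM in every other library, and Muc2, the colonic mucin, reached at most 0.341 CPM. The sum over the 14 markers was 342 to 417 CPM in livers, 65.8 to 230 in hormone tumors and 57.5 to 444 in sgTrp53 + MYC tumors, and the tumor with the most Lypd8 had a sum of 175. In livers most of the sum was Aqp8, at 245 to 324 CPM. Their part in the level of Lypd8 was not tested. Of the nearest genes, Zfp692 was higher than liver by 1.43 (SE 0.19), 1.77 (SE 0.19) and 1.64 (SE 0.19), Sh3bp5l was lower, at -0.78 (SE 0.12), -0.62 (SE 0.12) and -0.68 (SE 0.12), and Zfp672 was lower, at -0.62 (SE 0.17), -0.72 (SE 0.17) and -0.57 (SE 0.17). The other 3, 1810065E05Rik, Gm12253 and Lypd9, had at most 9 reads in any group.

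**Figure D4:**
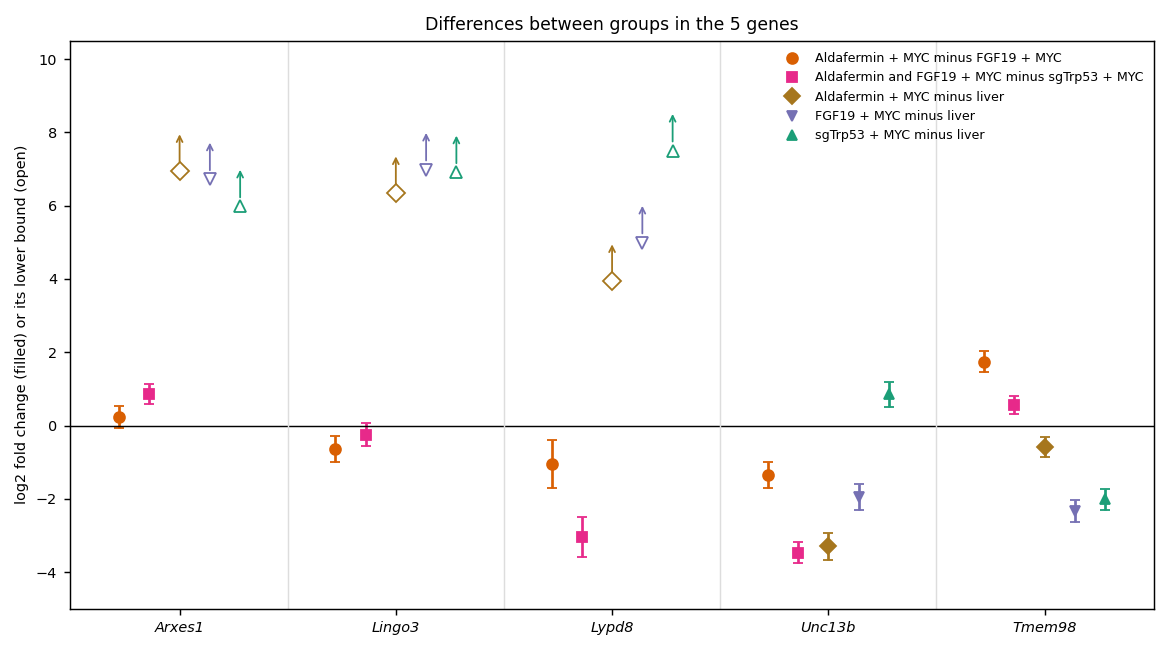
Log2 fold change of each gene in 5 comparisons (filled symbols with standard error), or its lower bound against the 3 reads that a liver count of 0 allows (open symbols with arrows). The bounds of Arxes1, Lingo3 and Lypd8 against liver lie between 3.94 and 7.50, while Unc13b and Tmem98 lie between -3.30 and 0.85 against liver.

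Unc13b was expressed in livers and set the tumor groups apart from each other. The Aldafermin + MYC tumors held 2.31, 0.471, 1.20, 1.58 and 1.91 CPM in replicates 1 to 5, the FGF19 + MYC tumors 3.80, 3.39, 3.99, 4.34 and 3.62, and the sgTrp53 + MYC tumors 33.5, 30.7, 27.9, 15.3 and 25.2. The livers held 17.5, 14.3, 24.1, 11.6 and 6.02 CPM. The 3 tumor groups did not overlap, livers lay above both hormone groups, and they overlapped sgTrp53 + MYC tumors. The fitted log2 fold change was -1.36 (SE 0.36) for Aldafermin + MYC minus FGF19 + MYC and -3.47 (SE 0.29) for the mean of both minus sgTrp53 + MYC tumors. Against liver it was -3.30 (SE 0.38) in Aldafermin + MYC, -1.94 (SE 0.36) in FGF19 + MYC and 0.85 (SE 0.34) in sgTrp53 + MYC tumors.

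Ranges that do not overlap were counted for all genes as a background. Between Aldafermin + MYC and FGF19 + MYC tumors this held for 2 of the 5 genes, Unc13b and Tmem98, and for 1.46% of all genes tested. Between the hormone tumors and sgTrp53 + MYC tumors it held for Unc13b alone and for 5.7% of genes. Against liver it held for 4, 5 and 4 of the 5 genes in Aldafermin + MYC, FGF19 + MYC and sgTrp53 + MYC tumors, and for 58.8%, 62.5% and 56.2% of genes. Since these levels chose the 5 genes, nothing is read from these shares. At the adjusted threshold, edgeR's quasi-likelihood test called 0% of genes (0 of 14333) between Aldafermin + MYC and FGF19 + MYC tumors, with 1048 at an unadjusted p under 0.05, while its likelihood ratio test called 59 and DESeq2 96.

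The other UNC13 genes stayed low. Unc13a averaged between 0.194 and 0.604 CPM in the 4 groups, and Unc13c had 54 reads over all sgTrp53 + MYC tumors, 13 over the Aldafermin + MYC group, 0 over the FGF19 + MYC group and 1 over all livers. Unc13d, which primes granules in blood cells, was higher than liver in Aldafermin + MYC (0.82, SE 0.34, edgeR adjusted p = 0.0381, lost when any of 5 libraries was left out) and sgTrp53 + MYC tumors (1.31, SE 0.34, edgeR adjusted p = 0.00207), and stood at 0.28 (SE 0.34) in FGF19 + MYC tumors. Of 40 genes of the UNC13 family and vesicle priming, 28 were tested, and 0 differed between Aldafermin + MYC and FGF19 + MYC tumors. Over all 5 lists, 0 of 59 genes tested were called there by edgeR's quasi-likelihood test, 5 had an unadjusted p under 0.05, and DESeq2 and the likelihood ratio test also called 0.

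Between the hormone tumors and sgTrp53 + MYC tumors, 11 of the 28 vesicle genes differed, 5 higher and 6 lower, in a comparison where 23.7% of all genes were called, 11.6% higher and 12.1% lower. Lower in hormone tumors, as Unc13b was, were Rab27a, the GTPase that docks secretory granules (log2 fold change -2.20, SE 0.33, edgeR adjusted p = 0.000141), Syt7, a calcium sensor (-2.22, SE 0.65), and Sytl4, a Rab27 effector (-2.01, SE 0.47). Sytl5, another Rab27 effector, went the other way (2.80, SE 0.44, edgeR adjusted p = 0.000202), as did Stx1a, the neuronal syntaxin that Munc13 opens (1.67, SE 0.52). Rab27a averaged 1.82 CPM ± 0.887 (SD, n = 5) in Aldafermin + MYC and 1.55 ± 0.151 in FGF19 + MYC against 7.72 ± 4.07 in sgTrp53 + MYC tumors. For Syt7 a single sgTrp53 + MYC library held 37.5 CPM, against a median of 3.70 in that group, and without replicate 2 of that group the call was lost (edgeR adjusted p = 0.557). The Stx1a call was lost without sgTrp53 + MYC replicate 1, 3 or 5, and those of Napa, Vamp8, Stxbp3 and Sytl1 were each lost without at least 1 library. Markers of other cells moved in the same comparison: 4 of 5 biliary markers were lower in hormone tumors (Krt19 -6.65, Krt7 -6.33, Epcam -3.00 and Sox9 -2.51) and 3 of 5 macrophage markers were higher (Adgre1 1.22, Csf1r 1.11 and Cd68 0.77). The 5 biliary markers summed to 1.81 to 87.6 CPM in hormone tumors, 3.44 to 779 in sgTrp53 + MYC tumors and 44.3 to 124 in livers, and the 5 macrophage markers to 82.7 to 297, 55.4 to 102 and 259 to 360. The median biliary sum was 18.2 CPM in Aldafermin + MYC, 39.1 in FGF19 + MYC and 28.4 in sgTrp53 + MYC tumors. By this median the sgTrp53 + MYC tumors did not lie above the FGF19 + MYC tumors, although their highest sum was 779. The part of both sets of markers in these differences, and in that of Unc13b, was not tested. The number of called genes in all 5 lists, 15, fell to 8 without sgTrp53 + MYC replicate 3 and to 8 without replicate 5, with 7 of the 15 shared in each case, Rab27a, Rab3a, Stx4a, Syt7, Sytl4 and Sytl5 in both. With RLE size factors the split of the lists was 4 higher and 9 lower, in place of 8 and 7.

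Against liver, more vesicle genes fell than rose, 15 against 4 in Aldafermin + MYC, 15 against 3 in FGF19 + MYC and 13 against 5 in sgTrp53 + MYC tumors, while over all genes 31.9%, 32.9% and 33.0% were lower and 38.4%, 36.9% and 36.9% higher. With library totals alone the vesicle genes split into 8 lower and 7 higher, 9 and 6, and 8 and 10. Cadps2 and Syt1, both acting in calcium-triggered release, were among those that fell, Cadps2 with a log2 fold change of -5.97 (SE 1.17), -4.64 (SE 1.08) and -5.56 (SE 1.12), and Syt1 with -4.46 (SE 0.82), -4.06 (SE 0.81) and -5.76 (SE 0.87). These directions depend in part on the scaling: with library totals alone, the median of all genes against liver moved from 0.13, 0.06 and 0.07 to 0.97, 0.91 and 0.95, and the split over all 5 lists from 15 higher and 25 lower to 23 and 13 in Aldafermin + MYC, from 13 and 23 to 22 and 14 in FGF19 + MYC, and from 13 and 23 to 28 and 13 in sgTrp53 + MYC tumors.

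**Figure D5:**
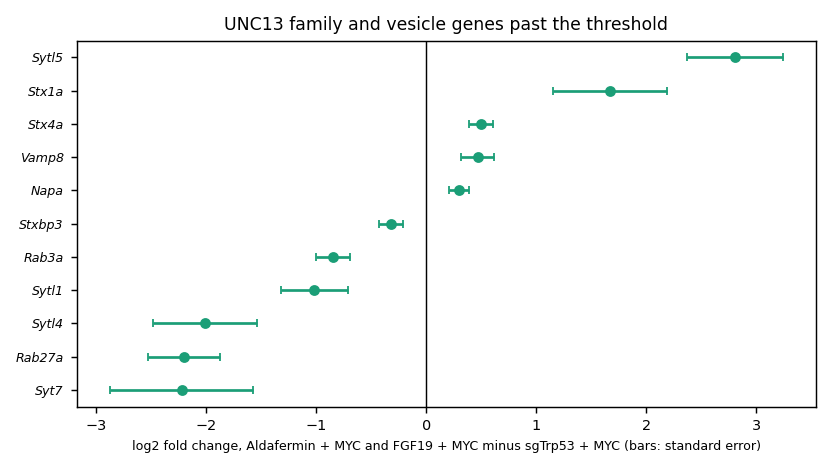
Log2 fold change of the 11 genes past the adjusted threshold among the 28 tested of the UNC13 family and vesicle priming list, as the mean of Aldafermin + MYC and FGF19 + MYC minus sgTrp53 + MYC tumors, with standard errors. Below 0 lie 6 genes (Syt7, Rab27a, Sytl4, Sytl1, Rab3a, Stxbp3), and 5 lie above.

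The neighbours of Unc13b did not share its differences as a group. Rusc2, an adaptor in vesicle transport, was lower in hormone tumors than in sgTrp53 + MYC tumors (-1.47, SE 0.31, edgeR adjusted p = 0.00265) and lower than liver in all 3 tumor groups (-2.99, -2.001 and -1.03, SE 0.38 to 0.41), the last of these calls being lost without liver replicate 5 or sgTrp53 + MYC replicate 4. Pigo, an enzyme of GPI anchor synthesis, was higher in hormone tumors than in sgTrp53 + MYC tumors (0.51, SE 0.14, edgeR adjusted p = 0.0110). Fam214b was lower than liver in every tumor group (-2.94, -3.07 and -3.46, SE 0.33), and Stoml2, a mitochondrial membrane protein, was higher (1.11, 1.06 and 0.96, SE 0.18). Atp8b5 was tested and not called, and Fam166b did not reach the filter. The genes annotated within the span of Unc13b, Gm23709, Gm68790 and Gm25010, lie on the other strand and share 0 exon bases with it.

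Tmem98 was highest in livers, with 31.6, 36.3, 34.6, 29.5 and 27.2 CPM in replicates 1 to 5. The Aldafermin + MYC tumors held 22.3, 19.99, 29.4, 8.35 and 25.8 CPM, the FGF19 + MYC tumors 4.8, 5.57, 6.37, 6.72 and 8.08, and the sgTrp53 + MYC tumors 6.42, 5.75, 8.53, 13.2 and 5.54. Each Aldafermin + MYC tumor lay above every FGF19 + MYC tumor, the nearest being replicate 4 at 8.35 and FGF19 + MYC replicate 5 at 8.08 CPM. Both libraries had the most hepatocyte markers of their groups. Aldafermin + MYC replicate 4 was the lowest of its group for Tmem98 and FGF19 + MYC replicate 5 the highest of its group, and the part of those markers in this was not tested. The fitted log2 fold change was 1.74 (SE 0.28) for Aldafermin + MYC minus FGF19 + MYC, the largest of the 5 genes in that comparison, and 2.05 without Aldafermin + MYC replicate 4 and FGF19 + MYC replicate 5. The mean of both minus sgTrp53 + MYC was 0.55 (SE 0.24), a mean of 1 group above and 1 group near the sgTrp53 + MYC level.

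Against liver, Tmem98 stood at -2.33 (SE 0.29) in FGF19 + MYC and -2.01 (SE 0.28) in sgTrp53 + MYC tumors, and at -0.59 (SE 0.28) in Aldafermin + MYC tumors, where the ranges overlapped and the sign turned to 0.25 with library totals alone. Its partner Myrf averaged 99.2 CPM ± 30.4 (SD, n = 5) in Aldafermin + MYC, 118 ± 24.5 in FGF19 + MYC and 79.2 ± 25.8 in sgTrp53 + MYC tumors against 68.4 ± 10.6 in livers, and passed the threshold against liver in FGF19 + MYC tumors (0.79, SE 0.25, edgeR adjusted p = 0.00914). Of the 12 partners and related ubiquitin ligases, 10 were tested, and 8, 7 and 6 were called against liver in Aldafermin + MYC, FGF19 + MYC and sgTrp53 + MYC tumors. Among all genes tested, 70.3%, 69.7% and 69.9% were called. Frat2, a GSK3 binding protein, was higher in all 3 groups (1.90, 1.87 and 1.81, SE 0.38), whereas Ndfip1, an adaptor of NEDD4 ligases (-1.72, -1.85 and -1.54, SE 0.21), and the ligase Wwp1 (-1.54, -1.46 and -1.29, SE 0.16) were lower. Nedd4l was the one that differed between hormone and sgTrp53 + MYC tumors (-0.52, SE 0.16, edgeR adjusted p = 0.0240), a call lost without sgTrp53 + MYC replicate 4 or 5, and 0 differed between Aldafermin + MYC and FGF19 + MYC tumors.

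The oligodendrocyte markers, for the cells in which Tmem98 and Myrf are best known, were near 0, with Mog, Sox10 and Olig2 at no more than 3 reads in every library. The nearest genes to Tmem98 differed in their directions. Myo1d, an unconventional myosin, was lower than liver in the 3 tumor groups (-1.15, SE 0.32, -1.97, SE 0.33, and -1.67, SE 0.32), as was Psmd11, a proteasome subunit (-0.53, -0.50 and -0.53, SE 0.11). Ccl2, the monocyte chemokine, was higher (3.44, SE 0.78, 2.36, SE 0.76, and 2.198, SE 0.75). Cdk5r1 was not called, and Spaca3 and Asic2 had 0 reads in every library. Between Aldafermin + MYC and FGF19 + MYC tumors, 0 of the 19 tested neighbours of the 5 genes passed the threshold by edgeR's quasi-likelihood test, 3 had an unadjusted p under 0.05, and DESeq2 and the likelihood ratio test called 0.

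The genes with the most similar profile over the 20 libraries were found by the root mean square difference of log2 CPM after each gene was centred on its mean. For Arxes1 they were Bex4 (0.62), Arxes2 (0.63) and Amn (0.69), of which Bex4 and Arxes2 are also neighbours. Those of Lingo3 were Ydjc (0.68), Ggt1 (0.71) and Slc35f2 (0.76). Those of Lypd8 were Tinag (1.25), Erfe (1.43) and Depdc1a (1.44), the largest differences of the 5 genes. These differences are not scaled to a gene's own spread. Its SD in log2 CPM was 3.74 for Arxes1, 3.81 for Lingo3, 3.53 for Lypd8, 1.72 for Unc13b and 1.05 for Tmem98. Tiam2 (0.78), Zbtb18 (0.87) and Ccdc162 (0.98) were nearest to Unc13b, and Tmem125 (0.45), Smim1 (0.50) and Fam131c (0.51) to Tmem98. Within the 15 tumors alone, where the step from liver does not weigh, Arxes2 was first for Arxes1 (0.35), and Fam131c (0.48) and Tmem125 (0.49) were the first 2 for Tmem98.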

How the data were processed

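RNA of 15 tumors and 5 livers was sequenced by the authors as stranded poly(A) libraries, 150-base paired reads (bcl2fastq 2.20.0.422), aligned with HISAT2 to mm39 and counted per RefSeq gene with htseq-count, and the values deposited are raw counts in 2 tables, of which 0 columns were left out. Both tables were joined on their 50559 genes, and the 5 summary lines were left out. The 14333 genes that reached 1 CPM in 5 or more libraries were fitted in 1 model over 4 groups with edgeR 4.0.16 (R 4.3.3), TMM scaling, the quasi-likelihood test and Benjamini-Hochberg adjusted p under 0.05. DESeq2 1.42.0, edgeR's likelihood ratio test, other scalings, no filter, a replicate block and leaving out each library were alternatives. The steps were tested on simulated data. All replicate pairs differed beyond sampling noise. Counting intervals and floors cover counting error only. Tumors came from separate mice. Livers are labelled as separate samples only, so p-values measure the spread between these samples.

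The 5 genes, the 5 gene lists and the tests were chosen with earlier results of these data known. Named were the 5 genes, the 3 nearest protein-coding genes on each side, up to 5 called genes of largest change per list and comparison, their family members, the 3 most similar profiles and Trp53. Bex1, Bex3, Tceal5, Gprasp1, Arhgef39 and the colon, fat, neuron, biliary and macrophage markers were named after their values were seen. One gene of the vesicle list is counted but not reported here.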

Additional observations from a re-analysis of the deposited data

Results flagged for a closer look

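Lypd8 in Aldafermin + MYC replicate 5 stood at 10.1 CPM, far from the other 4 tumors of its group, of which the next highest held 2.35 CPM. The gap was 0.796 of the range of the group, above Dixon's 95% limit of 0.71 for 5 samples. It was the one such value in 17 sets of a gene and a group, and chance gives about 1 in 20. The colon marker sum of this tumor was 211 CPM, the highest of its group. Single markers differed. Lgals4 was also highest there, at 11.7 CPM, but Vil1 was lowest there, at 2.19 CPM. Krt20 was higher in replicate 1 (39.3 against 35.5 CPM) and Tff3 in replicates 1 and 2 (15.2 and 27.6 against 12.0 CPM). The part of these markers in the Lypd8 level of this tumor was not tested.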

How the results depend on the processing

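With library totals alone in place of TMM, the log2 differences from liver moved upward: Arxes1 to 7.76 in Aldafermin + MYC and 7.52 in FGF19 + MYC tumors, and Lingo3 to 7.17, 7.77 and 7.77 in Aldafermin + MYC, FGF19 + MYC and sgTrp53 + MYC tumors. Lypd8 moved to 5.81 in FGF19 + MYC, Unc13b to -2.48, -1.11 and 1.71 in the 3 groups, and Tmem98 to -1.48 in FGF19 + MYC and -1.12 in sgTrp53 + MYC, while in Aldafermin + MYC it turned to 0.25. The values of Arxes1, Lingo3 and Lypd8 are lower bounds. This scaling also moved the median of all genes. Of 146 values of the 5 genes under other settings, 134 stayed within the replicate spread, as did 525 of 525 with a library left out. The genes called in the lists between hormone and sgTrp53 + MYC tumors, 15, were 9 with the compared groups alone, 20 with DESeq2, and 8 to 17 with a library left out; fewer samples entered those fits. Of the 3 most similar genes, Arxes1 kept 0 with a prior count of 0.5 and 1 in the 15 tumors, Lingo3 1 and 0, Lypd8 0 and Unc13b 1 in the tumors.

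Replicate numbers did not pair the samples: the deviations of same-numbered libraries correlated between -0.33 and 0.33 (median -0.02, 6 of 30 pairs over 0.1). With the replicate block, Lypd8 stood at -1.69 between Aldafermin + MYC and FGF19 + MYC tumors, and 12 list genes were called against sgTrp53 + MYC tumors. Low counts limit Unc13b, read 19 to 95 times in Aldafermin + MYC tumors.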
